A study of Mus musculus with 16 samples.

Results

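The pyruvate dehydrogenase complex and its regulators were examined in brown adipose tissue (BAT) through 10 genes, out of 49066 gene symbols in the data: the E1 subunits *Pdha1* and *Pdhb*, the E2 core *Dlat*, the E3-binding protein *Pdhx*, the kinases *Pdk1*, *Pdk2* and *Pdk4*, the phosphatase catalytic subunits *Pdp1* and *Pdp2*, and the phosphatase regulatory subunit *Pdpr*. The genes were chosen by function around *Pdpr*, which was itself chosen because its level was lower in knockout libraries of these data. All differences between knockout and control in these 10 genes are therefore given as a description, without a test. The test of whether they differ by sex uses the same values and is not independent of this choice. All 10 genes were found, and all 10 had a mean of at least 1 transcript per 1000000 (TPM) in the libraries of every comparison.

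The study sequenced polyadenylated RNA from BAT of 16 mice in 4 groups of 4. WT mice were littermates that carried floxed *Gdf15* alleles (*Gdf15* fl/fl) without Cre, and GDF15 BKO mice (KO) carried the same alleles with Cre driven by the *Ucp1* promoter, which acts in thermogenic adipocytes and leaves *Gdf15* intact in the other cells of the tissue. Males and females of both genotypes, on a C57BL6/J background, received a high-fat diet (HFD) for 12 weeks and were 18 weeks old. The deposited TPM divide the reads of a transcript by its length and scale each library to 1000000, so read depth cannot be recovered from them and no counting error can be given.

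The complex sits in the mitochondrial matrix and converts pyruvate to acetyl-CoA, the step that links glycolysis to the tricarboxylic acid cycle and to fatty acid synthesis from glucose. E1 decarboxylates pyruvate, E2 transfers the acetyl group to coenzyme A, and E3 (*Dld*), held to the core by the E3-binding protein, reoxidises the lipoyl groups of E2. Kinases of the Pdk family phosphorylate E1 and switch the complex off, and the Pdp phosphatases remove the phosphate and switch it on. Pdpr is the regulatory subunit of the phosphatase and is known to lower the sensitivity of the Pdp1 enzyme to magnesium. In adipose tissue and muscle, *Pdk4* is known to rise in fasting and when fatty acids are the main fuel.

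*Gdf15* was at 0.368 to 3.81 TPM in male WT, 0.0801 to 0.272 in male KO, 0.0622 to 0.311 in female WT and 0 to 0.0794 in female KO mice, so the targeted gene was near the bottom of the measured range in females of either genotype. The brown adipocyte markers were present in every library (10 of 10 genes, with a summed level of 6172 to 12880 TPM). Mitochondrially encoded transcripts made up 34.5 to 59.8% of each library. Skeletal muscle markers (10 of 10 genes detected) summed to 22.8 to 2165 TPM in male WT, 22.7 to 5033 in male KO, 7.45 to 1452 in female WT and 12.1 to 4380 in female KO mice, and exceeded 1000 TPM in 6 libraries that came from all 4 groups. In bulk tissue, fewer cells of a type and less RNA per cell cannot be told apart.

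The start-site regions of *Pdpr* and of the E1, E2 and E3-binding subunits are shown. In KO males the mean level of *Pdpr* was lower than in WT males, and those of these subunits were higher. The sequences are from RefSeq (GRCm38.p6), 120 bases each, read on the strand of the gene, and they lie upstream of every start of the gene in GENCODE mouse release 21. Of the 10 genes, 9 matched the table, and *Pdp1* did not. Capitals mark a match, on either strand, to any of 7 motifs: the estrogen-related receptor element (AAGGTCA), the NRF1 core (GCATGCGC), the CRE (TGACGTCA), the E-box (CACGTG), the GC box (GGGCGG), the CCAAT box (CCAAT) and the FOXO site (GTAAACA).
Pdpr, chr8:111094510-111094629, plus strand: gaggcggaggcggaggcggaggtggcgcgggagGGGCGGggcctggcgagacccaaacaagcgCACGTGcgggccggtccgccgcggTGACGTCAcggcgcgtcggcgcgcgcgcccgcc
Pdha1, chrX:160138431-160138550, minus strand: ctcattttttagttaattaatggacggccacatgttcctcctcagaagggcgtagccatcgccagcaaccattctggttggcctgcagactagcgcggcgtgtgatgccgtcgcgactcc
Pdhb, chr14:8173026-8173145, minus strand: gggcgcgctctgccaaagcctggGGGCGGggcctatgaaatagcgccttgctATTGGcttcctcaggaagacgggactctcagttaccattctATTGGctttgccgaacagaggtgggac
Dlat, chr9:50659781-50659900, minus strand: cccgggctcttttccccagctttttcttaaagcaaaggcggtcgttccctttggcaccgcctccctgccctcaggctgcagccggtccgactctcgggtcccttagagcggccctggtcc
Pdhx, chr2:103073514-103073633, minus strand: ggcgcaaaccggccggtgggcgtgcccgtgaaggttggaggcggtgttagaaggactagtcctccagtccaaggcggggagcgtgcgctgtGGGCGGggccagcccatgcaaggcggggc
The *Pdpr* stretch held a CRE, an E-box and a GC box, and no 2 matches shared a base. In the 250 bases before the start, 1.55% of 32851 RefSeq windows held a CRE, 6.02% an E-box, 32.7% a GC box and 33.9% a CCAAT box. The *Pdhb* and *Pdhx* stretches each held a GC box and *Pdhb* also CCAAT boxes, while the *Pdha1* and *Dlat* stretches of 120 bases held none of the 7 motifs. In the 250 bases, the length of the background windows, *Dlat* also held a GC box and *Pdha1* still held none. A match describes the letters of the window only.

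*Pdpr* (ENSMUSG00000033624, chromosome 8) was lower in KO mice of both sexes. Its level in male WT mice was 7.88, 6.65, 9.32 and 10.1 TPM, and in male KO mice it was 4.02, 4.78, 5.33 and 4.94 TPM. Female WT mice had 10.1, 9.71, 11.45 and 10.6 TPM, and female KO mice had 1.92, 4.24, 3.53 and 3.13 TPM. All 8 KO libraries lay below all 8 WT libraries. On the log2(TPM + 0.5) scale, used for every difference here, KO mice were lower than WT mice by a difference of -0.76 (SE 0.14) in males, 0.59 times the WT level, and by -1.61 (SE 0.19) in females, 0.33 times the WT level, and the mean of both was -1.18 (SE 0.12). The added 0.5 shrinks the differences of weakly expressed genes. The median difference of all genes tested was 0.16 in males and 0.10 in females, in the opposite direction.

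Groups that did not overlap, with KO below WT, were rare in males (0.673% of 12176 genes) and less rare in females (3.19% of 12141 genes), and 0.139% of 12210 genes (17 genes) were below WT without overlap in each sex. Since *Pdpr* was selected on this contrast, its place among these genes is not evidence about it. Library names begin with a prefix whose meaning is not stated and which is unevenly spread over the groups. Among libraries of prefix 9, 3 male KO mice differed from 2 male WT mice by -0.89 for *Pdpr*. The female difference was -2.13 for prefix 10 (1 KO and 1 WT mouse) and -1.46 for prefix 8b (1 KO and 3 WT mice). Without the 6 libraries with muscle markers above 1000 TPM, *Pdpr* differed by -0.93 in males and -1.69 in females. The males left were all of prefix 9, so this male value shares its mice with that of prefix 9.

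**Figure D1:**
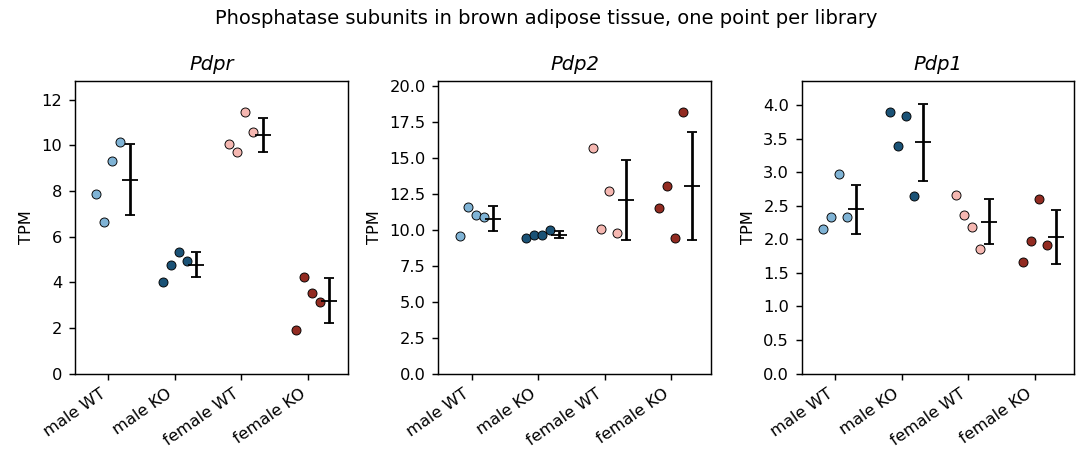
Level in TPM (vertical axes, from 0) of the phosphatase genes *Pdpr*, *Pdp2* and *Pdp1* in the 4 groups, with 1 point per library and the group mean and SD (n = 4) to its right. For *Pdpr*, the 8 KO points lie between 1.92 and 5.33 TPM and the 8 WT points between 6.65 and 11.45 TPM, while the KO and WT points of *Pdp1* and *Pdp2* overlap in both sexes.

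The *Pdpr* level rested on 1 transcript. Pdpr-201 (ENSMUST00000039333, protein-coding, 18 exons) carried 95.2 to 100% of the *Pdpr* TPM in the 16 libraries. Its level followed that of the gene: it averaged 8.39 ± 1.65 TPM in male WT, 4.67 ± 0.61 in male KO, 10.3 ± 0.75 in female WT and 3.2 ± 0.97 in female KO mice (SD, n = 4 each). Pdpr-202 (ENSMUST00000135302), annotated as a protein-coding fragment of 4 exons, averaged 0.103 TPM and was listed at 0 in 7 libraries, among them all 4 female KO mice. Pdpr-203, annotated as a target of nonsense-mediated decay, was listed at 0 in all 16. The share of Pdpr-201 was 98.5 ± 1.65% in male WT and 98.1 ± 1.9% in female WT mice (SD, n = 4 each), a difference of 0.416 percentage points that was within the spread (exact two-sided permutation test, p = 0.629). A gene on the opposite strand, *9430091E24Rik*, overlaps *Pdpr*. It averaged 4.54 ± 0.83 TPM in male WT, 4.28 ± 0.74 in male KO, 4.28 ± 0.71 in female WT and 3.94 ± 0.61 in female KO mice (SD, n = 4). The libraries were prepared with a kit that marks the strand, but the paper does not state whether the quantification used the strand. The part of this gene's reads in the *Pdpr* level was not tested.

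The catalytic phosphatase subunits did not share the difference of *Pdpr*. *Pdp2* was the more abundant of them per length and took 70.8 to 90.5% of the summed *Pdp1* and *Pdp2* TPM. Its level was 9.61, 11.6, 11.02 and 10.9 TPM in male WT, 9.41, 9.66, 9.66 and 10.01 in male KO, 15.7, 10.1, 12.75 and 9.79 in female WT and 11.52, 13.1, 9.44 and 18.2 in female KO mice. KO and WT values of *Pdp2* overlapped in both sexes, with differences of -0.15 (SE 0.09) in males and 0.09 (SE 0.22) in females.

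*Pdp1*, the isoform whose enzyme is stimulated by calcium, was at 2.15, 2.33, 2.98 and 2.33 TPM in male WT and 3.89, 3.39, 3.84 and 2.65 in male KO mice, a difference of 0.42 (SE 0.14). In females it was at 2.66, 2.37, 2.18 and 1.85 TPM in WT and 1.66, 1.98, 2.6 and 1.91 in KO mice, a difference of -0.13 (SE 0.17). The groups overlapped in both sexes, and without the libraries with muscle markers above 1000 TPM the male difference was 0.16. Summed, *Pdp1* and *Pdp2* amounted to 13.2 ± 1.04 TPM in male WT, 13.1 ± 0.36 in male KO, 14.4 ± 3.02 in female WT and 15.1 ± 3.56 in female KO mice (SD, n = 4). The ratio of *Pdpr* to this sum was 0.644 ± 0.12 in male WT, 0.363 ± 0.042 in male KO, 0.751 ± 0.15 in female WT and 0.219 ± 0.079 in female KO mice (SD, n = 4), and since its numerator chose the gene, the ratio is also a description.

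The mean levels of the subunits of the complex were higher in KO than in WT males and lower in KO than in WT females. Most genes were higher in KO males: 20.1% of 12176 genes were lower, and the median difference was 0.16. Relative to that median, the male differences were 0.27 for *Pdha1*, 0.22 for *Pdhb*, 0.34 for *Dlat* and 0.05 for *Pdhx*. In females 37.3% of 12141 genes were lower, and relative to the median of 0.10 the differences were -0.76, -0.66, -0.78 and -0.59. *Pdha1* (E1 alpha, chromosome X) was at 399, 344, 572 and 579 TPM in male WT and 468, 723, 685 and 646 in male KO mice. In females it was at 561, 582, 514 and 397 TPM in WT and 226, 474, 417 and 244 in KO mice. KO mice had on average more *Pdha1* than WT mice in males (difference 0.43, SE 0.21) and less in females (-0.65, SE 0.27), and the groups overlapped in each sex.

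*Pdhb* (E1 beta, chromosome 14) was at 394, 430, 648 and 586 TPM in male WT, 477, 859, 719 and 635 in male KO, 580, 601, 469 and 484 in female WT and 299, 453, 428 and 290 in female KO mice. All 4 female KO values were below all 4 female WT values, and the male groups overlapped. The difference was 0.38 (SE 0.22) in males and -0.56 (SE 0.19) in females. *Dlat* (E2, chromosome 9) was at 208, 208, 323 and 310 TPM in male WT, 278, 426, 402 and 366 in male KO, 302, 277, 245 and 263 in female WT and 132, 245, 202 and 124 in female KO mice. Its difference was 0.50 (SE 0.20) in males and -0.68 (SE 0.23) in females, with overlap in each sex, the lowest female WT and highest female KO mice differing by less than 1 TPM. *Pdhx* (E3-binding protein, chromosome 2) had the smallest differences of these 4, at 0.21 (SE 0.14) in males and -0.49 (SE 0.18) in females, with 46.1 to 62.4 TPM in male WT, 53.8 to 71.3 in male KO, 48.2 to 61.1 in female WT and 31.6 to 54.4 in female KO mice.

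**Figure D2:**
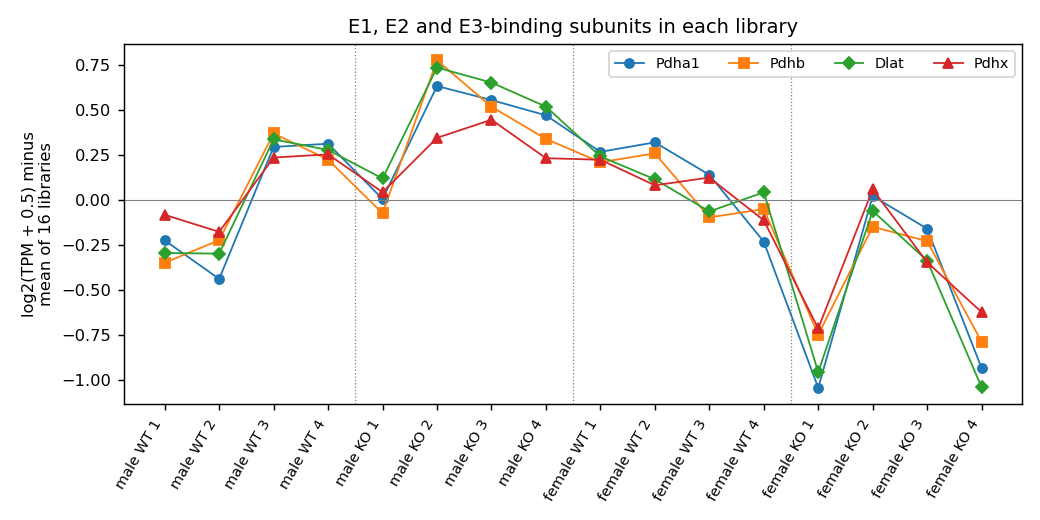
Level of *Pdha1*, *Pdhb*, *Dlat* and *Pdhx* in each library (horizontal axis, in group order), as log2(TPM + 0.5) minus the mean of the gene over the 16 libraries (vertical axis). The 4 genes follow each other from library to library; female KO replicates 1 and 4 are the lowest for all 4 genes, and male KO replicates 2 and 3 the highest.

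The libraries within a group differed widely. Female KO replicates 1 and 4 were the lowest 2 of 16 for *Pdha1*, *Pdhb*, *Dlat*, *Pdhx* and *Pdk1*, and also for *Pdpr* and *Dld*. Female KO replicate 2 lay within the range of the 8 WT mice for each of these genes except *Pdpr*, where it was below (4.24 TPM). Against the 4 female WT mice alone, it was also below the range for *Pdhb* (453 TPM, female WT 469 to 601) and *Pdk1* (19.6 TPM, female WT 22.3 to 26.6). In the same replicates 1 and 4, *Acly*, the ATP citrate lyase of fatty acid synthesis, was at 31.4 and 28.0 TPM, against 187 and 261 TPM in the others and 254 to 555 TPM in female WT mice. Endothelial markers (5 of 5 genes) summed to 342 and 276 TPM in replicates 1 and 4, to 177 to 342 TPM over the female KO group and to 118 to 157 TPM in female WT mice. Brown adipocyte markers summed to 12390 and 11770 TPM in these replicates, against 6172 to 10280 TPM in female WT mice. Among them *Ucp1* was at 3797 and 4423 TPM (female WT 2601 to 3258) and *Ebf2* at 5.16 and 6.45 (9.87 to 14.45). Adipocyte markers (3 of 3 genes) summed to 8720 and 9056 TPM, against 5006 to 7332 TPM. *Fabp4* was at 7741 and 7833 TPM (4005 to 6024) and *Plin1* at 377.5 and 455.9 (557.5 to 651.9). White adipocyte markers (5 of 5 genes) summed to 91.7 and 97.2 TPM, against 82.6 to 192 TPM. *Lep* was at 2.24 and 1.595 TPM (6.41 to 67.2), *Npr3* at 4.12 and 3.84 (12.24 to 32.35) and *Retn* at 62.8 and 72.2 (38.5 to 54.8). Genes within each of these 3 lists thus went in opposite directions. The part of these markers in the subunit and *Pdpr* differences was not tested. Skeletal muscle markers summed to 22.4 and 435 TPM in the same replicates. Without replicate 1 the female difference was -0.48 for *Pdha1*, and without replicate 2 it was -0.84. In males, WT replicates 1 and 2, of prefix 5 and with muscle markers of 1552 and 2165 TPM, had the 2 lowest values of the male WT group for these 4 genes. Without the libraries with muscle markers above 1000 TPM, the male differences were 0.25 for *Pdha1*, 0.26 for *Pdhb*, 0.32 for *Dlat* and 0.04 for *Pdhx*. Within prefix 9 (3 KO and 2 WT mice) they were 0.25, 0.25, 0.33 and 0.10. The males of the first set (WT replicates 3 and 4, KO replicates 2 and 4) were all of prefix 9, so both sets share mice. In male WT mice, muscle content and prefix cannot be told apart. The female differences, in the same order of genes, were -0.24, -0.27, -0.37 and -0.38 within prefix 8b (1 KO and 3 WT mice) and -1.31, -0.96, -1.20 and -0.94 within prefix 10 (1 KO and 1 WT mouse, of which the KO mouse is replicate 1). Macrophage markers (8 of 8 genes) summed to 41.5 to 79.2 TPM in male WT and 102 to 150 TPM in male KO mice, without overlap, and fibroblast markers (7 of 7 genes) to 74.6 to 135 TPM in male WT and 140 to 155 TPM in male KO mice, also without overlap. The part of either in the male differences was not tested.

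**Figure D3:**
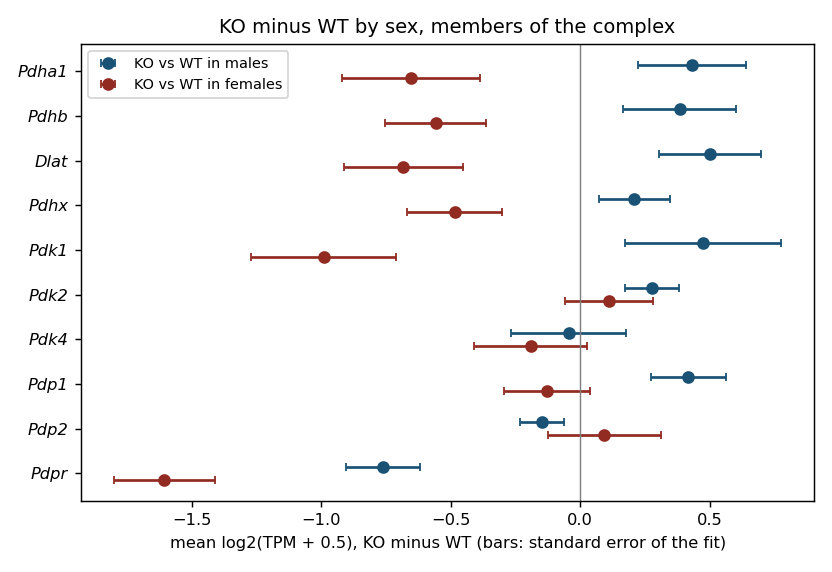
Difference between KO and WT mice in mean log2(TPM + 0.5) (horizontal axis) for the 10 genes, in males and in females, with the standard error of the fit as bars (n = 4 mice per group). *Pdpr* lies below 0 in both sexes, at -0.76 and -1.61, while *Pdha1*, *Pdhb*, *Dlat*, *Pdhx*, *Pdk1* and *Pdp1* lie above 0 in males and below 0 in females.

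Whether the KO effect differed by sex (male minus female) was tested for the 9 genes other than *Pdpr*, in a limma fit over all 16 libraries. The largest value relative to its error was that of *Dlat*, 1.18 (95% confidence interval 0.51 to 1.85), followed by *Pdk1* at 1.46 (0.53 to 2.40), *Pdhb* at 0.94 (0.31 to 1.58), *Pdha1* at 1.08 (0.33 to 1.84) and *Pdhx* at 0.69 (0.20 to 1.19). *Pdp1* had 0.54 (0.09 to 0.99). None of them passed the test across 12210 genes, with Benjamini-Hochberg adjusted p-values from limma of 0.216 for *Dlat*, 0.218 for *Pdk1* and *Pdhb*, 0.222 for *Pdha1*, 0.224 for *Pdhx* and 0.275 for *Pdp1*. Nor did any other gene: 0 of 12210 (0%) passed with limma, and 1735 had an unadjusted p under 0.05. That is 14.2% of all genes, against 6 of these 9. The genes were chosen with KO results of these libraries known, so their count, intervals and p-values are not independent evidence. *Pdp2* (-0.24, interval -0.76 to 0.28), *Pdk2* (0.16, interval -0.24 to 0.57) and *Pdk4* (0.15, interval -0.54 to 0.83) had intervals that included 0. For *Pdpr*, the KO effect was larger in females by 0.84 (SE 0.25), given as a description.

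The kinases were far more abundant than the phosphatases. Summed over *Pdk1*, *Pdk2*, *Pdk3* and *Pdk4*, kinase transcripts amounted to 522 to 917 TPM, which was 29.4 to 67.9 times the summed catalytic phosphatases. *Pdk4* took 65.6 to 80.7% of the kinase TPM, *Pdk2* 16.8 to 30.7%, *Pdk1* 1.39 to 5.05% and *Pdk3*, the kinase best known from testis, 0.0603 to 0.263%. *Pdk4* was at 446, 438, 372 and 727 TPM in male WT, 423, 388, 467 and 610 in male KO, 721, 387, 407 and 401 in female WT and 390, 356, 455 and 423 in female KO mice. Its groups overlapped in each comparison, and 1 mouse decided much of the WT mean in each sex (male WT replicate 4 and female WT replicate 1). The difference between KO and WT was -0.04 (SE 0.22) in males, or 0.16 without male WT replicate 4, and -0.19 (SE 0.22) in females, or 0.02 without female WT replicate 1.

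*Pdk2*, a kinase held responsible for basal phosphorylation in many tissues, was at 118, 138, 138 and 151 TPM in male WT and 157, 172, 176 and 154 in male KO mice. All 4 male KO mice were above all 4 male WT mice, at a difference of 0.28 (SE 0.10). In males, 9.55% of all genes had KO above WT without overlap, and *Pdk2* was the only gene of the 10 among them. With median-of-ratios scaling in place of TPM the *Pdk2* difference in males was 0.10. In females *Pdk2* was at 111 to 169 TPM in WT and 125 to 167 in KO mice, a difference of 0.11 (SE 0.17), and with overlap.

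*Pdk1*, which is known as a target of hypoxia-inducible factor, was at 11.2, 11.9, 26.5 and 21.5 TPM in male WT, 16.05, 29.8, 23.9 and 25.9 in male KO, 26.6, 24.0, 22.3 and 25.2 in female WT and 7.97, 19.6, 16.3 and 8.24 in female KO mice. The female KO mice lay below the female WT mice without overlap. With *Pdhb* and *Pdpr*, which was chosen on this contrast, 3 of the 10 genes did so, where 3.19% of all genes did, and nothing is read from this count. None of the 10 was above WT without overlap in females (4.89% of all genes). The *Pdk1* difference was -0.99 (SE 0.28) in females and 0.47 (SE 0.30) in males. Within the libraries of a prefix it was -1.68 (prefix 10) and -0.53 (prefix 8b) in females and 0.14 (prefix 9) in males, and the male difference was 0.29 without male WT replicate 1 and 0.69 without male WT replicate 3. Counted from protein-coding transcripts alone, the female *Pdk1* difference was -0.55.

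**Figure D4:**
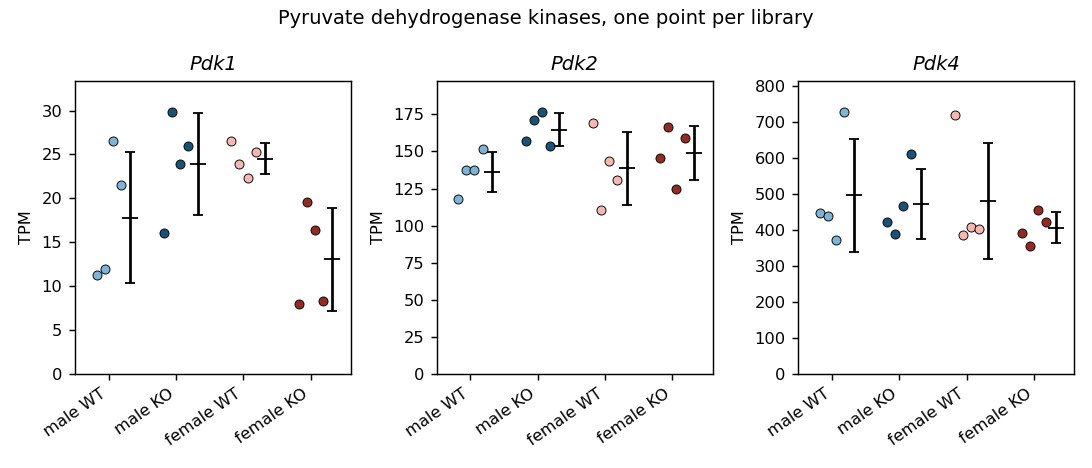
Level in TPM (vertical axes, from 0) of the kinases *Pdk1*, *Pdk2* and *Pdk4* in the 4 groups, with 1 point per library and the group mean and SD (n = 4) to its right. *Pdk4* is the most abundant, at 356 to 727 TPM. Male KO mice are above male WT mice for *Pdk2*, female KO mice are below female WT mice for *Pdk1*, and 2 WT mice at 721 and 727 TPM stand above the rest for *Pdk4*.

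The transcripts behind each gene differed in kind. *Pdha1*, *Pdhb*, *Pdk2*, *Pdk4*, *Pdp1*, *Pdp2* and *Pdpr* had 97.4 to 100% of their mean TPM on complete protein-coding transcripts. For *Dlat* this was 31.9%, all of it Dlat-201 (14 exons), whereas Dlat-202 (ENSMUST00000125919, annotated as a processed transcript of 770 bases without a coding sequence) took 52.5 to 60.5% in every library. The 2 *Dlat* transcripts kept a similar balance: Dlat-201 had a share of 30.2 to 34.3% over the 16 libraries. For *Pdk1*, 67.3% was on the coding Pdk1-201, and the non-coding Pdk1-208 had 27.8 to 34.0% in male WT, 17.1 to 20.8% in male KO, 24.4 to 34.3% in female WT and 6.44 to 31.4% in female KO mice. For *Pdhx*, an incomplete coding fragment (Pdhx-203) took 0 to 27.9%. Counted from protein-coding transcripts alone, the *Dlat* mean fell from 269.5 to 86.0 TPM over the 16 libraries, and its differences between KO and WT were 0.49 in males and -0.71 in females.

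**Figure D5:**
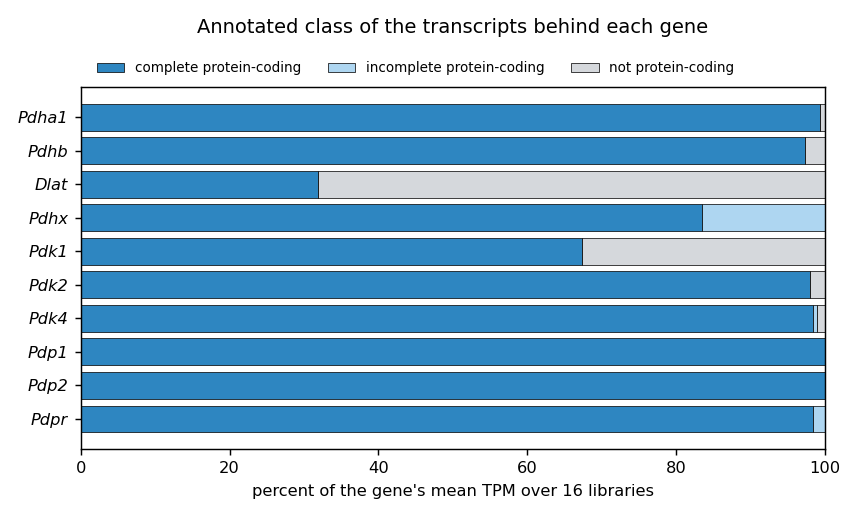
Share of each gene's mean TPM over the 16 libraries (horizontal axis, percent) that is carried by complete protein-coding, incomplete protein-coding and non-coding annotated transcripts. *Dlat* has 31.9% and *Pdk1* 67.3% on complete coding transcripts, *Pdhx* has 83.5%, and the other 7 genes have 97.4% or more.

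Per length and averaged over the 16 libraries, the order of the levels was *Pdhb* (522 TPM), *Pdha1* (490), *Pdk4* (463), *Dlat* (269.5), *Pdk2* (147), *Pdhx* (53.4), *Pdk1* (19.8), *Pdp2* (11.4), *Pdpr* (6.73) and *Pdp1* (2.55). Over the 16 libraries the ranges of neighbours in this order overlapped, except that the lowest *Pdk2* value (111 TPM) was above the highest *Pdhx* value (71.3 TPM) and the lowest *Pdhx* value (31.6 TPM) above the highest *Pdk1* value (29.8 TPM). Such ranges do not compare genes within a library, and *Pdpr*, for example, was above *Pdp1* in every library. *Pdhb*, *Pdha1* and *Pdk4* were not separated even within the male WT group, where they ranged over 394 to 648, 344 to 579 and 372 to 727 TPM. On protein-coding transcripts alone, *Dlat* averaged 86.0 TPM and *Pdk2* 144 TPM, so their order was reversed.

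Male and female WT mice did not differ past the threshold in any tested gene of the complex, which does not show equal levels. They shared no library prefix (5 and 9 in males, 8b and 10 in females). Sex and prefix therefore cannot be told apart between the WT groups. Of the 9 genes tested, 0 passed in limma (adjusted p from 0.959 to 0.999) and 0 had an unadjusted p under 0.05, against 4.66% of all genes, while 8 of 12210 genes (0.0655%) passed. The values of male and female WT mice overlapped for all 10 genes, and over all genes 0.704% were lower and 1.2% higher in males without overlap. The intervals of the difference were -0.67 to 0.40 for *Pdha1*, -0.53 to 0.38 for *Pdhb*, -0.55 to 0.40 for *Dlat*, -0.37 to 0.33 for *Pdhx* and -1.20 to 0.12 for *Pdk1*. *Pdpr* was lower in male than in female WT mice by a difference of -0.30 (SE 0.18), with overlapping values.

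Of 36 other genes around pyruvate use, 35 reached a mean of 1 TPM, and *Pdk3* (0.566 to 0.969 TPM as group means) did not. In males 0 of the 35 passed in limma (1 of 12176 genes did, 0.00821%), and in females 0 (0 of 12141 genes, 0%, with 2075 at an unadjusted p under 0.05). In males 6 of the 35 were lower in KO mice, where 20.1% of all genes were, and their median difference was 0.19 against 0.16 for all genes. In females 23 of the 35 were lower, where 37.3% of all genes were, and their median was -0.18 against 0.10. The list was made with earlier results of these data known, so its counts and medians are not independent evidence. For the mean KO effect, 358 of 12210 genes passed (2.93%), 315 of them higher and 43 lower, and 1 of the 35 passed, *Ppara*.

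*Ppara*, the fatty acid-sensing nuclear receptor that is known to drive *Pdk4*, was at 41.7, 38.8, 51.8 and 64.4 TPM in male WT, 29.3, 35.4, 38.2 and 46.3 in male KO, 67.5, 37.4, 63.2 and 52.3 in female WT and 23.8, 34.8, 24.9 and 28.4 in female KO mice. It was lower without overlap in females and with overlap in males. The mean KO effect was -0.67 (SE 0.15, limma adjusted p = 0.0313), and the study had picked the gene from these libraries, so this is not independent evidence of its direction. Adjusted p ranged from 0.00679 to 0.102 over the alternatives, and the effect from -0.80 to -0.60. The effect was -0.67 with no TPM minimum (adjusted p = 0.084), -0.80 with the prefix as a covariate (0.0598) and -0.79 without the muscle-rich libraries (0.102), and the call was lost in all 3. The call was also lost without any 1 of 8 libraries: male WT replicates 1 and 3, male KO replicates 1, 2 and 3, female WT replicate 3, and female KO replicates 1 and 4, with effects from -0.70 to -0.61. *Foxo1*, a forkhead factor of fasting, and *Ppard* had mean effects of 0.35 and 0.22 that did not pass (adjusted p = 0.13 and 0.178).

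The E3 subunit *Dld* was at 271 ± 65.5 TPM in male WT, 335 ± 59.6 in male KO, 291 ± 49.5 in female WT and 181 ± 68.1 in female KO mice (SD, n = 4), with differences of 0.32 in males and -0.74 in females that did not pass (limma adjusted p = 0.402 and 0.245). The pyruvate carrier subunits *Mpc1* and *Mpc2* differed by 0.32 and 0.14 in males and by -0.41 and 0.06 in females (limma adjusted p = 0.33, 0.646, 0.283 and 0.854). In males the smallest p-values of the list belonged to *Lipt2* of lipoyl transfer (0.46), *Ppm1k*, the phosphatase of the branched-chain dehydrogenase (-0.56), and *Pkm*, pyruvate kinase (0.55), with adjusted p of 0.203, 0.209 and 0.219. In females they belonged to *Ppara* (-0.95), *Me1*, the cytosolic malic enzyme (-1.18), and *Acly* (-2.23), each with an adjusted p of 0.231.

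In the test of a sex difference of the KO effect, 0 of the 35 passed in limma, and 13 had an unadjusted p under 0.05, 12 of them with the higher value in males, against the 14.2% of all genes given above. Since the list was made with earlier results known, this count is not independent evidence. *Me1* led with 2.32 (95% interval 1.14 to 3.504), followed by *Ogdh*, the E1 subunit of the 2-oxoglutarate dehydrogenase complex, at 0.85 (0.35 to 1.35), and *Pkm* at 1.15 (0.47 to 1.83), each with an adjusted p of 0.216. *Dld* had 1.06 (0.31 to 1.81) and *Mpc1* 0.73 (0.21 to 1.25), both with an adjusted p of 0.224. Between male and female WT mice 0 of the 35 passed, and the smallest p-values belonged to *Bckdk* (0.34), *Lipt1* (0.44) and *Me1* (-0.49), each with a limma adjusted p of 0.959.

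The genes whose log2(TPM + 0.5) followed *Pdpr* most closely over the 16 libraries, among 12209 others, were *Ptprd* (Pearson r = 0.953), *Zyg11b* (0.944), *Dennd4c* (0.937), *Asxl2* (0.935) and *Hipk2* (0.912). *Hipk2* averaged 5.33 TPM in male WT, 3.03 in male KO, 8.33 in female WT and 1.46 in female KO mice. With the mean of each group subtracted, the closest were *Kif1b* (0.97), *Kif21a* (0.944), *Ywhag* (0.931), *Rhoq* (0.923) and *Mdh1* (0.919). The 2 lists shared no gene. For *Pdk4*, the closest as measured were *Gm23095* (0.905), *Gm49336* (0.811), *Trim33* (0.79), *Slbp* (0.775) and *Fbxo30* (0.77), and with group means subtracted *Gm23095* (0.9), *Snhg14* (0.831), *Asb3* (0.823), *Prdm4* (0.822) and *Gm49336* (0.813). *Gm23095* was weakly expressed, at 3 TPM on average in male WT, 4.29 in male KO, 1.62 in female WT and 0 in female KO mice. These correlations are a description across libraries that share the TPM scale and, within groups, 1 diet and age.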

How the data were processed

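Total RNA of BAT from 16 mice was prepared by the authors as stranded mRNA libraries, and single-end reads were quantified with kallisto 0.46.2. The processing notes name GRCm39. The deposited values are TPM per transcript, scaled by the authors to 1000000 per library; their own tests used DESeq2 on counts that are not used here. Precision rests on the spread between mice, and the labels do not tell litters apart. GENCODE mouse release 21 held 135051 of the 137438 transcripts when version numbers were ignored, and their TPM were added up by symbol. Every column mapped to a sample.

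Each gene averaging at least 1 TPM over the libraries of a fit was tested on log2(TPM + 0.5) with limma 3.58.1 (R 4.3.3; eBayes with trend) and Benjamini-Hochberg adjustment at 0.05. Each sex had its own fit of KO against WT over 8 libraries; the mean KO effect, its difference between the sexes and male against female WT used 4 group means over 16 libraries. The Pdpr-201 share was compared with an exact permutation test (scipy 1.17.1). The fit was tested on simulated data. The 10 genes, the 36 other genes and the marker lists were chosen with earlier results of these data known. Of the 36, those past the threshold, *Dld*, *Pdk3*, *Mpc1* and *Mpc2*, and the 3 with the smallest p in each comparison are named; genes like *Pdpr* and *Pdk4* are the 5 with the highest Pearson r. Alternatives were pseudocounts of 1 and 0.1, TPM minima of 0 and 5, median-of-ratios scaling, TPM recomputed after removal of mitochondrial transcripts, no trend, a block for the replicate number, a covariate for the prefix, coding transcripts only, 1 fit for all 16 libraries, and each library left out. Leaving out the libraries with muscle markers above 1000 TPM was chosen after seeing the data.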

Additional observations from a re-analysis of the deposited data

Results flagged for a closer look

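*Pdk4* in female WT replicate 1 was at 720.8 TPM, while the other female WT mice were at 387 to 407 TPM. The gap to the nearest mouse was 0.939 of the range of the group, above the 95% limit for groups of 4. It was the only flag among 40 such checks of the 10 genes in 4 groups, of which chance gives about 2.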

How the results depend on the processing

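Of 1205 differences of the 10 genes under the alternatives, 1194 moved by less than the spread between mice (SD within groups), and the 11 that moved further did so with the prefix as a covariate or without the muscle-rich libraries. Among the differences between KO and WT, these were -0.28 for *Pdp2* and -0.11 for *Pdk2* in females with the prefix and 0.16 for *Pdp1* in males without the muscle-rich libraries. The others were 0.36 for *Pdk2* and 0.0703 for *Pdp2* in the difference between the sexes with the prefix and, for male against female WT, -0.66 for *Pdp2*, -0.35 for *Pdk2* and -0.27 for *Pdhx* with the prefix and -0.04 for *Pdk1*, 0.24 for *Pdha1* and 0.28 for *Pdhb* without the muscle-rich libraries. The spread exceeded some of the differences, so a move below it does not show that a difference held. For *Pdhx* in males the spread was 0.23 and the difference 0.21, which fell to 0.04 with median-of-ratios scaling. A change of sign occurred in 40 of the 1205, none of them for *Pdpr*, whose difference ran from -0.93 to -0.68 in males and from -1.74 to -1.41 in females. The number of genes past the threshold depended strongly on the setting. In males (1 gene), it was 2 with a pseudocount of 0.1, 0 with no TPM minimum, 7 with median-of-ratios scaling, 12 after removal of mitochondrial transcripts, 6 with the prefix as a covariate, 18 with coding transcripts only, 38 with all 16 libraries in the fit and 9 without the muscle-rich libraries, and 0 to 5 with 1 library left out. In females (0), it was 8 with the prefix, 5 with all 16 libraries, 2 without the muscle-rich libraries and 0 to 9 with 1 library left out. For the mean KO effect (358), it was 54 with no minimum, 177 with a minimum of 5, 12 with the prefix, 719 with coding transcripts only, 9 without the muscle-rich libraries and 31 to 1055 with 1 library left out. For the difference between the sexes (0), it was 1 without a trend, 3 without the muscle-rich libraries and 0 to 3 with 1 library left out. The causes were not tested.

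Replicate numbers are shared by the groups but did not pair the mice: deviations of same-numbered mice correlated from -0.117 to 0.349. With the replicate block the counts were 0 in males, 1 in females and 60 for the mean KO effect, and the adjusted p of *Ppara* was 0.0622.

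Some values changed sign, and not all were near 0: *Me1* in male against female WT was -0.49 before the change. Between KO and WT, signs changed for *Pdk4* in males (3 alternatives) and for *Pdp2* (3), *Pdk2* (1) and *Pdk4* (1) in females. For the mean KO effect they changed for *Pdp2* (3), *Pdp1* (1) and *Pdk1* (1). That of *Pdk1* went from -0.26 to 0.027 with coding transcripts only. For the difference between the sexes, *Pdp2* became 0.0703 with the prefix and *Pdk4* ranged from -0.0662 to 0.347 with 1 library left out. For male against female WT, excluding mitochondrial transcripts gave 0.0689 for *Pdk2*, 0.00939 for *Pdhb*, 0.00568 for *Dlat* and 0.0619 for *Pdhx*; *Pdk4* became -0.00649 with median-of-ratios scaling and -0.0652 with the prefix; leaving out the muscle-rich libraries gave 0.24 for *Pdha1*, 0.28 for *Pdhb*, 0.23 for *Dlat*, 0.17 for *Pdhx* and 0.16 for *Me1*. With 1 library left out the same comparison ranged from -0.118 to 0.0864 for *Pdk2*, -0.146 to 0.267 for *Pdk4*, -0.256 to 0.00364 for *Pdha1*, -0.196 to 0.0432 for *Pdhb*, -0.189 to 0.0228 for *Dlat* and -0.0871 to 0.0565 for *Pdhx*, and the share of Pdpr-201 from -0.533 to 1.19 percentage points.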
